A study of Mus musculus with 48 samples.

Results

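The genes described here are 10 heat shock protein genes and partners, chosen by symbol from a table of 51789 mouse gene IDs: Hspa1a, Hspa1b, Hspa8, Hsph1, Hsp90aa1, Hsp90ab1, Hspb1, Hspd1, Hspe1 and Bag3. Each symbol matched 1 gene ID. All 10 genes passed the filter on low counts in both fits of the data. Their transcripts were counted from the 3′ ends of mRNA in 48 libraries of mouse macrophages, which form 16 groups of 3. The groups are 8 macrophage populations, each incubated for 4 hours with the compound AP-3-84 at 10 µM or with DMSO as vehicle.

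The ascites population was washed from the peritoneum of mice 45 days after injection of ID8 ovarian tumour cells, and its genotype field reads B6(Cg)-Tyrc-2J/J. The thio population was taken from wild-type C57BL/6 mice 4 days after 1 ml of 3% thioglycollate was injected into the peritoneum, a standard way to recruit macrophages. Both were enriched for F4/80+ cells on magnetic beads. The other 6 populations were grown from bone marrow of wild-type C57BL/6 (WT) or p53 knockout (KO) mice in 10 ng/mL M-CSF for 6 days. M0 cells had no further cytokine, M1 cells had LPS (100 ng/mL) and IFN-γ (50 ng/mL) for 24 hours, and M2 cells had IL-4 and IL-13 (10 ng/mL each) for 24 hours. Nothing in the labels says whether the 3 libraries of a group came from separate mice or cultures, so p-values measure the spread between these libraries, which may be technical. The genotype field of the KO libraries reads wild-type, and the KO grouping follows their titles, descriptions and the series design. Trp53, the gene of p53, ranged from 2.80 to 9.30 CPM (counts scaled to a common library size) over all libraries labelled KO. Over all libraries labelled WT it ranged from 4.17 to 13.9 CPM, so the pooled ranges overlapped. Within M0 the genotypes did not overlap. Trp53 was at 3.49 to 6.92 CPM (KO) and 9.89 to 13.8 CPM (WT) with vehicle. With AP-3-84 it was at 2.80 to 6.94 CPM (KO) and 7.03 to 13.9 CPM (WT). Within M1 and M2 the Trp53 ranges of the genotypes overlapped. Where its deletion lies is not given in the labels, and reads from 3′ ends outside a deletion are no check of it.

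Heat shock proteins are chaperones. HSP70 proteins bind unfolded stretches of other proteins and release them in a cycle driven by ATP, HSP90 proteins mature kinases, receptors and other clients, and the HSP60 and HSP10 proteins form a folding chamber in mitochondria. Under proteotoxic stress the transcription factor HSF1 binds heat shock elements, inverted repeats of the unit GAA, and drives the inducible members of these families, while the constitutive members are abundant in unstressed cells.

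Upstream sequences are shown for the 3 genes with the largest responses to AP-3-84, followed by a stretch that Hspd1 and Hspe1 share. They are the 250 bases before each RefSeq start (GRCm38.p6), 5′ to 3′ on the gene's strand, with matches to the heat shock element units GAANNTTC or TTCNNGAA in capitals. The Hspa1a window is chr17:34972157-34972406 (minus strand), the Hspa1b window chr17:34959239-34959488 (minus strand) and the Hspb1 window chr5:135887669-135887918 (plus strand). None of these 3 windows overlaps an annotated exon.
Hspa1a: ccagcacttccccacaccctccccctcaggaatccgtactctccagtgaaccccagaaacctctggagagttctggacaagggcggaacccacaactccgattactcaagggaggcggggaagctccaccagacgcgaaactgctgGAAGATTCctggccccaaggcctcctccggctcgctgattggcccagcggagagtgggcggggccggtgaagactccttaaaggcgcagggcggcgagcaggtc
Hspa1b: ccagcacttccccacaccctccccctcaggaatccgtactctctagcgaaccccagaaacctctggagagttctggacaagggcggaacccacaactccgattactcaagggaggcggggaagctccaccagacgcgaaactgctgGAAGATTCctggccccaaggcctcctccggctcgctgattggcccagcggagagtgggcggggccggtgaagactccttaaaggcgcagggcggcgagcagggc
Hspb1: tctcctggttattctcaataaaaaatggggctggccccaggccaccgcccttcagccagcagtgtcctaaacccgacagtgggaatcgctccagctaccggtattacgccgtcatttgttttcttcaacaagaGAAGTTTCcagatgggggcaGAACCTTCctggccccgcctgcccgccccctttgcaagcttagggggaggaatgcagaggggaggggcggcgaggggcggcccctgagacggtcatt
Hspd1 and Hspe1 shared stretch, on the Hspe1 strand: TTCTAGAACCTTCCGGAA

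Hspa1a and Hspa1b are neighbouring copies 9951 bases apart on chromosome 17, and their windows differ at 3 of 250 bases. Each holds 1 match, GAAGATTC, which begins at position -104 from the gene start. The Hspb1 window holds 2 matches, which begin at positions -117 and -97. Hspd1 and Hspe1 lie head to head on chromosome 1, on opposite strands with their annotated ends overlapping by 112 bases. The stretch of 18 bases printed for them (chr1:55088059-55088076) is the same DNA read from either strand, and it holds the longer form with 3 units (GAANNTTCNNGAA or TTCNNGAANNTTC). It lies in the Hspe1 window and in 1 of 2 Hspd1 windows, and all 250 bases of both are annotated exon of Hspd1 or Hspe1. The other Hspd1 window (chr1:55088244-55088493), which ends at the annotated gene start, holds no match. The overlapping windows of Hsph1 hold the same match, TTCTCGAA, and that of Bag3 none. In all, 6 of the 7 members with an entry in the RefSeq promoter table held the shorter form in at least 1 window, searched on both strands. By window it was 7 of 9, against 12.8% of all 32851 promoters. The longer form, which always contains the shorter one, was found in 2 of the 9 windows and in 0.466% of all promoters. Those 2 windows are of Hspd1 and Hspe1 and hold the same shared stretch. The member windows are thus not independent sequences. A match is a run of letters and shows no binding. Hspa8, Hsp90aa1 and Hsp90ab1 had no entry in that table.

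Peritoneal libraries held 15532373 to 19417581 counts each and bone marrow-derived libraries 3081707 to 4645148, so low genes were measured more precisely in the former. Levels below are CPM from counts scaled with TMM, and the 2 sets were scaled apart. A gene is called when its edgeR quasi-likelihood test gave a Benjamini-Hochberg adjusted p under 0.05 over all genes tested, and "rose" or "fell" is used of called genes. Log2 fold changes (AP-3-84 over vehicle) carry standard errors (SE), and error terms of means are SDs over 3 libraries. In bulk RNA, more cells that make a transcript and more transcript per cell cannot be told apart. The KO_M0 libraries with AP-3-84 stood apart from the vehicle ones in other genes: the macrophage surface gene Adgre1 was at 657 to 2408 CPM against 466 to 504, the M-CSF receptor Csf1r at 1452 to 3810 against 4947 to 8054, the mannose receptor Mrc1 at 60.7 to 280 against 343 to 430, and the 4 M1 markers summed to 29.6 to 218 against 18.3 to 22.5. The 8 macrophage markers summed to 18132 to 39158 CPM against 32521 to 39143 CPM, so as a set they overlapped. The 5 neutrophil markers summed to 267 to 417 CPM against 510 to 632 CPM. The 4 B cell markers, of which Cd79b alone was above 0, summed to 6.62 to 22.7 CPM against 2.16 to 5.23 CPM. The part of these shifts in the KO_M0 results below was not tested. The defining M1 gene Nos2 was at most 4.77 CPM in WT_M1, where the 4 M1 markers summed to 352 to 558 CPM with vehicle.

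Together the 10 genes made up a median of 0.426% of all counts in ascites macrophages with vehicle and 0.974% with AP-3-84, and 0.292% and 0.588% in thio macrophages. In WT_M2 the share was 0.528% and 0.681%, and in KO_M0 0.442% and 0.706%. In WT_M1 it was 0.573% and 0.611%. In these 5 populations every treated library was above every vehicle library. In WT_M0, KO_M1 and KO_M2 the treated median was the lower one (0.563% against 0.582%, 0.709% against 0.766%, and 0.582% against 0.694%), and the groups overlapped.

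**Figure D1:**
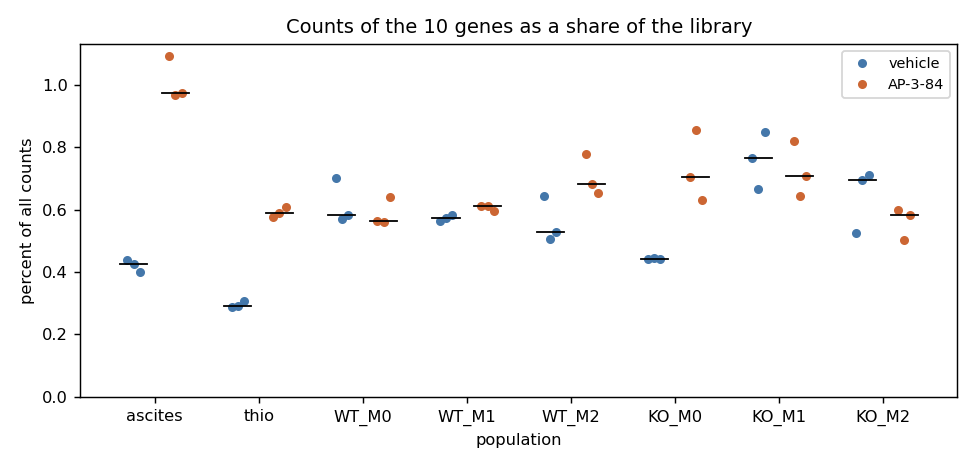
Counts of the 10 genes as a percent of all counts of each library (vertical axis, from 0) for the 8 populations (horizontal axis), vehicle in blue and AP-3-84 in orange, with the group median as a black line. The ascites libraries with AP-3-84 are the highest, at 0.967% to 1.09%.

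AP-3-84 raised all 10 genes in ascites macrophages, 9 of 10 in thio macrophages and 7 of 10 in KO_M0. In the other bone marrow-derived cells only the most inducible members were called: Hspa1a in WT_M0, Hspa1a, Hspa1b and Hspb1 in WT_M2, and Hspa1a and Hspa1b in KO_M2. None was called in WT_M1 or KO_M1, and none was called lower in any population, although with no filter on low counts Hspb1 was called lower in KO_M0 (-0.74, adjusted p 0.0345). Over all genes, 1.69% were called higher in ascites, 2.51% in thio, 0.144% in WT_M0, 0.017% in WT_M1, 0.229% in WT_M2, 12.1% in KO_M0, 0% in KO_M1 and 0.034% in KO_M2. The count of members was above that share in ascites, thio, WT_M0, WT_M2, KO_M0 and KO_M2. The members were chosen with earlier results of these data known, so a count above the share is no independent support. In KO_M0, 20.7% of 11779 genes were called in either direction. The members' median log2 fold change was 1.43 in ascites, 1.02 in thio, 0.68 in KO_M0 and 0.33 in WT_M2, and from -0.06 to 0.07 in the other 4, beside medians of all genes from -0.03 to 0.03. DESeq2 called 10, 9, 2, 1, 3, 7, 0 and 2 members in ascites, thio, WT_M0, WT_M1, WT_M2, KO_M0, KO_M1 and KO_M2. In a single fit of all 48 libraries the counts were 9 in ascites, where Hspe1 lost its call (adjusted p 0.570), and 6 in thio, where Hspd1 (0.758), Hsp90ab1 (0.0608) and Bag3 (0.825) did. At an unadjusted p under 0.05, 2 members passed in WT_M1 (7.28% of all genes) and 0 in KO_M1 (1.75%).

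**Figure D2:**
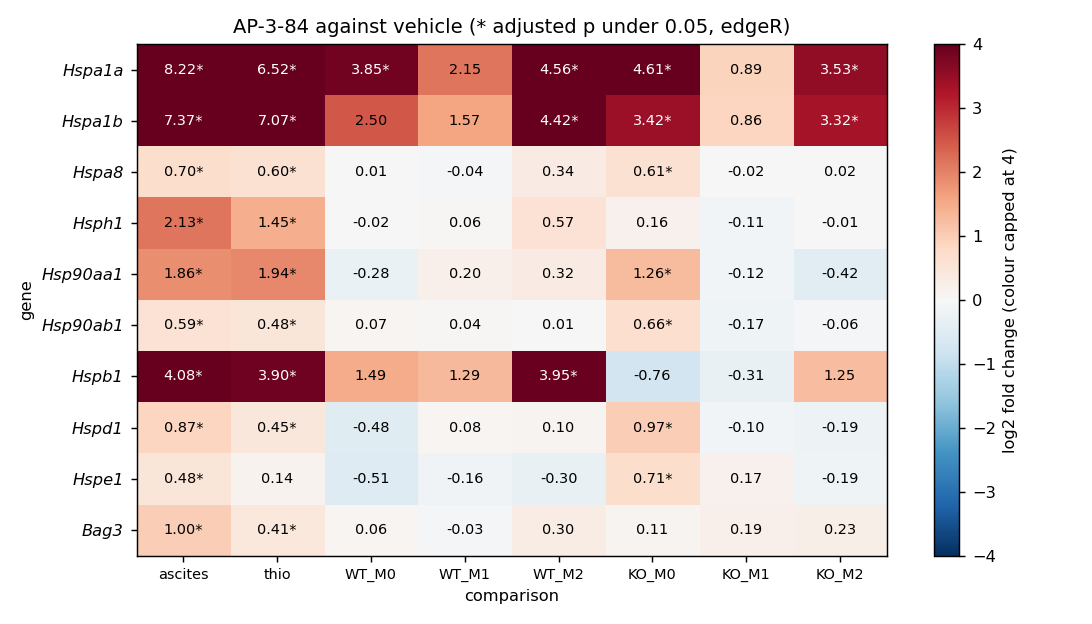
Log2 fold changes of the 10 genes (rows) with AP-3-84 against vehicle in 8 populations (columns), printed in each cell and coloured red for higher and blue for lower, with an asterisk where the edgeR adjusted p was under 0.05. Hspa1a and Hspa1b are at 0.86 or above in every column, while Hspe1 and Bag3 carry 2 asterisks each.

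Hspa1a and Hspa1b encode the stress-inducible HSP70. In ascites macrophages Hspa1a was at 2.58, 2.61 and 2.22 CPM in the 3 vehicle libraries and at 759.7, 741 and 713 CPM with AP-3-84 (log2 fold change 8.22, SE 0.20, adjusted p 3.73e-10). Hspa1b went from 2.4, 1.92 and 1.95 CPM to 349, 364 and 324 CPM there (7.37, SE 0.15, adjusted p 5.55e-14). The treated libraries lay close together and far from every vehicle library. The 8 macrophage markers summed to 23917 to 28623 CPM in those treated libraries and to 28832 to 30677 CPM with vehicle, and in thio macrophages to 27662 to 32826 CPM and 34346 to 34808 CPM. Their part in these results was not tested. In thio macrophages Hspa1a was at 3.13, 5.47 and 3.53 CPM with vehicle and at 413, 306 and 396 CPM with AP-3-84 (6.52, SE 0.18, adjusted p 2.17e-09). Hspa1b was at 0.894, 1.03 and 0.597 CPM and then at 133, 97.0 and 108 CPM (7.07, SE 0.17, adjusted p 5.15e-13). The groups did not overlap for either gene.

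In the bone marrow-derived cells both genes were also low with vehicle. Marker genes differed between treated and vehicle WT_M2 libraries with no overlap, the 4 M1 markers at 3.71 to 14.2 CPM against 48.1 to 255 and the 4 M2 markers at 5043 to 6057 CPM against 7030 to 10383, and their part in the WT_M2 results was not tested. In WT_M2 Hspa1a was at 6.68, 5.43 and 5.38 CPM with vehicle and at 223, 101 and 92.3 CPM with AP-3-84 (4.56, SE 0.47, adjusted p 1.44e-06). Hspa1b was at 2.78, 4.83 and 0.633 CPM and at 106, 27.1 and 46.4 CPM (4.42, SE 0.56, adjusted p 5.19e-05), a call lost when only the WT_M2 libraries were fitted (adjusted p 0.117). Treated replicate 1 was the highest for both genes. In KO_M0 Hspa1a went from 1.57, 0.308 and 1.89 CPM to 36.9, 11.8 and 48.7 CPM (4.61, SE 0.57, adjusted p 2.23e-06), and Hspa1b from 1.57, 1.54 and 0.27 CPM to 9.85, 6.91 and 20.1 CPM (3.42, SE 0.65, adjusted p 0.000411). Replicate 2 was the lowest treated library for both.

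In KO_M2 Hspa1a was at 5.04, 2.03 and 0.992 CPM with vehicle and at 27.4, 30.4 and 34.9 CPM with AP-3-84 (3.53, SE 0.50, adjusted p 0.00116). Hspa1b was at 0.796, 1.8 and 1.74 CPM and at 11.5, 12.0 and 21.1 CPM (3.32, SE 0.61, adjusted p 0.0348). The groups did not overlap, but the calls rested on few counts: Hspa1a lost its call without vehicle replicate 2 (adjusted p 0.0528), and Hspa1b without vehicle replicate 2 (0.217) or 3 (0.217) or AP-3-84 replicate 2 (0.0562) or 3 (0.190). When only the KO_M2 libraries were fitted, neither passed (adjusted p 0.0605 for each). In WT_M0 Hspa1a went from 1.12, 1.43 and 2.04 CPM to 31.0, 14.9 and 21.0 CPM (3.85, SE 0.55, adjusted p 0.00115, and 0.0531 without vehicle replicate 1). Hspa1b went from 1.12, 2.39 and 1.79 CPM to 14.5, 7.08 and 8.59 CPM there (2.50, SE 0.60), which missed the threshold by edgeR (adjusted p 0.0806) and passed it by DESeq2 (0.0103).

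The M1 cells had the smallest values. In WT_M1 Hspa1a was at 1.19, 3.97 and 2.01 CPM with vehicle and at 14.1, 6.3 and 12.6 CPM with AP-3-84 (2.15, SE 0.55), which did not pass by edgeR (adjusted p 0.232) and passed by DESeq2 (0.0208). In KO_M1 it was at 2.47, 2.78 and 1.56 CPM and at 3.79, 4.13 and 4.66 CPM (0.89, SE 0.60, adjusted p 1). Even there the treated libraries lay above the vehicle libraries, so Hspa1a separated the 2 groups in 8 of 8 populations and Hspa1b in 7 of 8. Of all genes tested, 9.86% in ascites, 12.7% in thio, 9.08% in WT_M0, 9.6% in WT_M1, 7.98% in WT_M2, 15.4% in KO_M0, 2.79% in KO_M1 and 6% in KO_M2 had every treated library above every vehicle library. Hspa1a had only 14 to 59 counts over the 3 vehicle libraries of a bone marrow-derived group, so its baselines were measured imprecisely. How small a difference between baselines could be detected at this depth was not tested. Averaged over WT and KO, the Hspa1a response was smaller in M1 than in M0, with a difference of -2.71 on the log2 scale (SE 0.60, adjusted p 0.0326), in a comparison where 0.365% of genes were called lower. That call held in 13 of 24 fits that left out 1 library. It was lost without any one of WT_M0 vehicle replicates 1 and 2, WT_M0 AP-3-84 replicate 1, WT_M1 vehicle replicate 2, KO_M0 vehicle replicates 1 and 2, KO_M0 AP-3-84 replicate 1, KO_M1 vehicle replicates 1 and 2 and KO_M1 AP-3-84 replicates 1 and 2, with adjusted p up to 0.115 (without WT_M1 vehicle replicate 2).

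**Figure D3:**
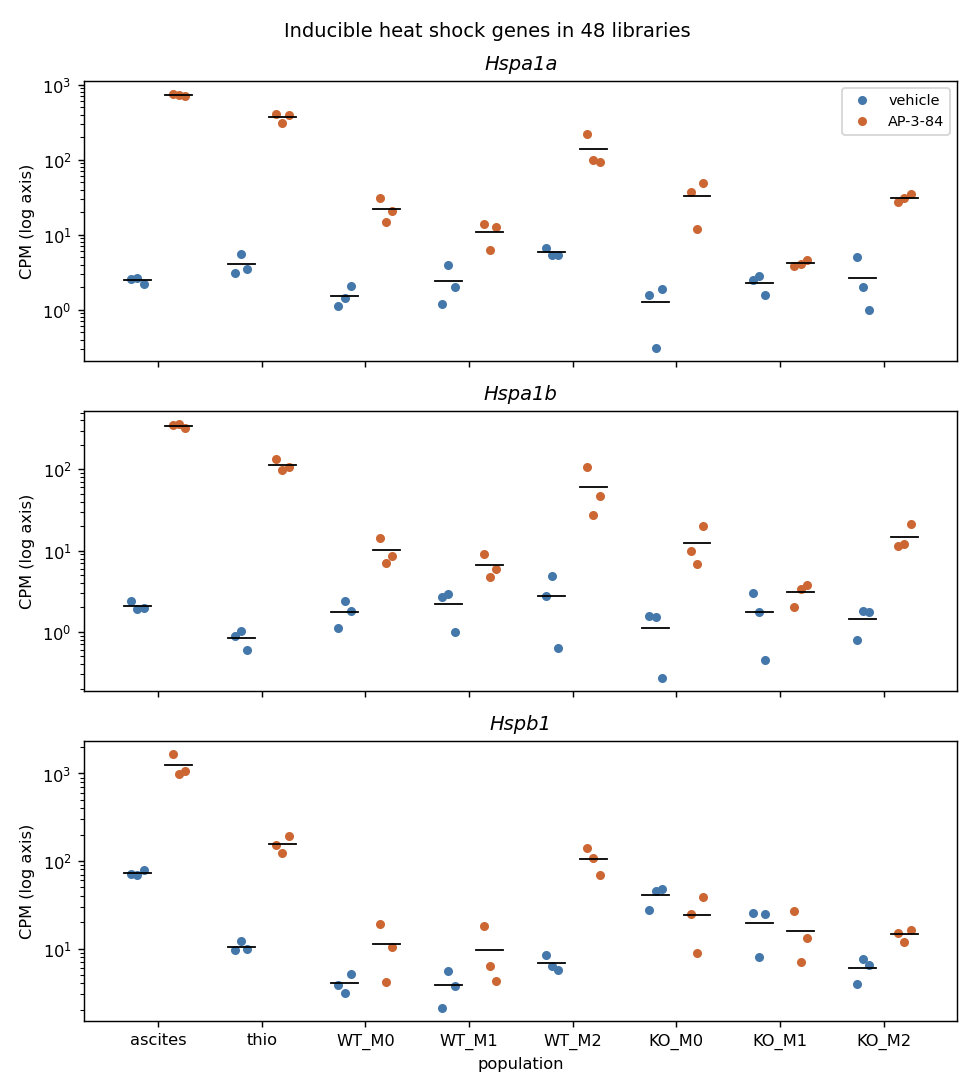
CPM on a log axis of Hspa1a, Hspa1b and Hspb1 in each of the 48 libraries (points; vehicle blue, AP-3-84 orange; black lines are means of 3 libraries) for 8 populations. Treated Hspa1a lies above vehicle in every population, while the Hspb1 groups overlap in WT_M0, WT_M1, KO_M0 and KO_M1.

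The copies share 52.7% of 75-base stretches over the Hspa1a transcript and 55.8% over that of Hspa1b, but 0% in the last 400 bases, where reads of a 3′ library fall, so reads there can be assigned to one copy. Gm20481, an antisense gene over Hspa1a, was listed at 0 counts in every library. Hspa1a made up a median of 53.2% of the pair's counts in ascites macrophages with vehicle and 68.5% with AP-3-84, and 84.1% and 75.9% in thio macrophages. With AP-3-84 the median was between 55.2% and 75.9% in the 8 populations. The highest treated library was the same for both copies in 7 of 8 populations, and so was the lowest.

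Hspb1 encodes HSP27, a small heat shock protein that holds unfolding proteins and has no ATP cycle. In ascites macrophages it was at 71.2, 69.5 and 79.6 CPM with vehicle and at 1679.7, 982 and 1073 CPM with AP-3-84 (4.08, SE 0.25, adjusted p 2.22e-05). In thio macrophages it was at 9.58, 12.1 and 9.82 CPM and at 151, 124 and 194 CPM (3.90, SE 0.27, adjusted p 7.11e-05). The 2 fold changes differed by 0.19 (SE 0.34, adjusted p 0.915), while all ascites libraries of a treatment lay above all thio libraries of that treatment. In WT_M2 it went from 8.35, 6.33 and 5.7 CPM to 140.5, 107 and 69.2 CPM (3.95, SE 0.58, adjusted p 0.000526), again with no overlap. In KO_M2 it was at 3.98, 7.66 and 6.45 CPM with vehicle and at 15.0, 12.0 and 16.5 CPM with AP-3-84 (1.25, SE 0.59, adjusted p 0.393). In KO_M0 the 2 groups overlapped, at 27.8, 45.6 and 48.4 CPM with vehicle and at 24.5, 8.88 and 38.4 CPM with AP-3-84 (-0.76, SE 0.51, adjusted p 0.303). The log2 fold changes in WT_M0, WT_M1 and KO_M1 were 1.49, 1.29 and -0.31, none called.

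Averaged over genotypes, the Hspb1 response was larger in M2 than in M0 by 2.23 (SE 0.58, adjusted p 0.0434; 0.238% of genes were called higher), a call that held only without WT_M0 AP-3-84 replicate 1, WT_M2 AP-3-84 replicate 3, KO_M0 vehicle replicate 1 or KO_M0 AP-3-84 replicate 3 among 24 fits that left out 1 library, with adjusted p up to 0.0894 (without WT_M0 vehicle replicate 3). The difference between KO and WT in M0 was -2.26 (SE 0.81, adjusted p 0.0544 by edgeR and 0.0191 by DESeq2), and in M2 -2.70 (SE 0.83, adjusted p 0.0952 by edgeR and 0.0194 by DESeq2).

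Hsph1 encodes HSP110, which exchanges the nucleotide of HSP70, and Bag3 a co-chaperone that links HSP70 to small heat shock proteins and autophagy. In ascites macrophages Hsph1 was at 59.5, 64.7 and 62.7 CPM with vehicle and at 314, 247 and 256 CPM with AP-3-84 (2.13, SE 0.09, adjusted p 1.92e-10). In thio macrophages it was at 47.2, 53.7 and 52.9 CPM and at 137, 135 and 149 CPM (1.45, SE 0.09, adjusted p 2.69e-08). These are rises with no overlap, and Hsph1 was called in no bone marrow-derived population. Its largest fold change there was 0.57 in WT_M2 (SE 0.21, adjusted p 0.216), where vehicle replicate 1 stood at 91.8 CPM against 49.8 and 46.2 CPM in the other two. Without that library it was 0.95 (adjusted p 0.0213). The 5 neutrophil markers summed to between 409 and 3716 CPM over the 3 WT_M2 vehicle libraries, and their part in the value was not tested.

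Bag3 went from 40.3, 42.0 and 34.4 CPM to 88.7, 73.1 and 71.8 CPM in ascites macrophages (1.00, SE 0.10, adjusted p 6.57e-06). In thio macrophages it went from 66.1, 63.5 and 67.8 CPM to 86.1, 93.4 and 82.5 CPM (0.41, SE 0.09, adjusted p 0.0175). The latter groups did not overlap, but the call was lost without vehicle replicate 1 (0.0687), 2 (0.0902) or 3 (0.0547) or AP-3-84 replicate 2 (0.0909). In bone marrow-derived cells Bag3 stayed uncalled, with log2 fold changes from -0.03 to 0.30.

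Hsp90aa1 and Hsp90ab1 encode the inducible and the constitutive cytosolic HSP90. In ascites macrophages Hsp90aa1 was at 654, 671 and 626 CPM with vehicle and at 2598, 2176 and 2314 CPM with AP-3-84 (1.86, SE 0.07, adjusted p 3.96e-11). In thio macrophages it was at 483, 490.2 and 505 CPM and at 1777, 1852 and 2023 CPM (1.94, SE 0.07, adjusted p 2.23e-11). The difference between these 2 rises was -0.07 (SE 0.09, adjusted p 0.874). In KO_M0 it went from 855, 826 and 836 CPM to 1883, 2548 and 1584 CPM (1.26, SE 0.25, adjusted p 0.000558). Elsewhere it was not called, with log2 fold changes from -0.42 in KO_M2 to 0.32 in WT_M2.

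Hsp90ab1 moved less, from 2084, 1964 and 1855 CPM to 3118, 2801 and 2977 CPM in ascites macrophages (0.59, SE 0.07, adjusted p 3.83e-05) and from 1385, 1373 and 1494 CPM to 1772, 2082 and 2078 CPM in thio macrophages (0.48, SE 0.07, adjusted p 0.000443). In KO_M0 it rose from 1742, 1932 and 2082 CPM to 3210.1, 3476 and 2392 CPM (0.66, SE 0.13, adjusted p 0.000489). The groups did not overlap in these 3 populations. In KO_M1 all 3 treated libraries (1994, 1982 and 1951 CPM) lay below the vehicle libraries (2524, 2079 and 2086 CPM), a difference that was not called (-0.17, SE 0.13, adjusted p 1), and 3.87% of all genes had every treated library below there.

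Hspa8, the constitutive cytosolic HSP70, rose from 799, 804 and 758 CPM to 1421, 1217 and 1201 CPM in ascites macrophages (0.70, SE 0.06, adjusted p 5.09e-06). In thio macrophages it rose from 634, 630.0 and 644 CPM to 914, 972 and 999.9 CPM (0.60, SE 0.06, adjusted p 3.08e-05), and in KO_M0 from 1024, 1108 and 861 CPM to 1665, 1605 and 1283 CPM (0.61, SE 0.12, adjusted p 0.000564). Its groups did not overlap in any of the 3. When only the KO_M0 libraries were fitted, Hspa8 (adjusted p 0.0635), Hsp90ab1 (0.0578) and Hspe1 (0.0675) lost their KO_M0 calls, which left 4 of 10 members called there. In WT_M2 the treated libraries also lay above the vehicle ones (0.34, SE 0.12, adjusted p 0.199), a difference called when libraries were scaled by total counts alone (0.45, adjusted p 0.0458).

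Hspd1 encodes the mitochondrial chaperonin HSP60 and Hspe1 its lid HSP10, and the shared stretch printed above lies in 1 window of each. Hspd1 went from 237, 246 and 237 CPM to 461, 424 and 437 CPM in ascites macrophages (0.87, SE 0.05, adjusted p 3.04e-08), and from 189, 191 and 194 CPM to 259, 259 and 268 CPM in thio macrophages (0.45, SE 0.05, adjusted p 7.65e-05). Hspe1 rose in ascites macrophages from 223, 214 and 186 CPM to 271, 310.0 and 291 CPM (0.48, SE 0.08, adjusted p 0.00292). In thio macrophages its groups overlapped, at 154, 148 and 172 CPM and at 173, 189.9 and 160.4 CPM (0.14, SE 0.08, adjusted p 0.455). In KO_M0 Hspd1 went from 100.1, 105 and 131 CPM to 233, 281 and 147 CPM (0.97, SE 0.23, adjusted p 0.00246), and Hspe1 from 163, 126 and 122 CPM to 234, 265 and 170.2 CPM (0.71, SE 0.19, adjusted p 0.00861). Replicate 3 was the lowest treated KO_M0 library for both, and the Hspe1 call was lost without AP-3-84 replicate 2 (0.0884). The retrocopies of Hspd1 and Hspe1 took few reads, at most 137 counts over all libraries (Hspd1-ps3).

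In WT_M0 the treated medians of Hspd1 and Hspe1 were the lower ones. Hspd1 was at 203, 134 and 142 CPM with vehicle and at 86.0, 119 and 138 CPM with AP-3-84 (-0.48, SE 0.22, adjusted p 0.504), and Hspe1 at 282, 209 and 167 CPM and at 125, 142 and 196 CPM (-0.51, SE 0.19, adjusted p 0.402). Neither passed the test, and the groups overlapped. The response was larger in KO_M0 than in WT_M0 by 1.45 for Hspd1 (SE 0.32, adjusted p 0.00237), 1.21 for Hspe1 (SE 0.27, adjusted p 0.00272) and 1.53 for Hsp90aa1 (SE 0.35, adjusted p 0.00304). It was also larger by 0.59 for Hspa8 (SE 0.17, adjusted p 0.0151) and by 0.59 for Hsp90ab1 (SE 0.18, adjusted p 0.0236). These 5 of 10 stood beside 10% of all genes called higher in that comparison. With no filter on low counts Hspa8 (adjusted p 0.120) and Hsp90ab1 (0.117) lost this call. The first 3 held in all 12 fits that left out 1 library. Hspa8 lost its call without KO_M0 AP-3-84 replicate 1 (0.0518) or 2 (0.0527), and Hsp90ab1 without any one of 6 libraries, namely WT_M0 vehicle replicate 1 (0.0594), WT_M0 AP-3-84 replicates 1 (0.0564) and 2 (0.0541), KO_M0 vehicle replicate 1 (0.0603) and KO_M0 AP-3-84 replicates 1 (0.0612) and 2 (0.107). With vehicle, the mean of each of the 5 genes was lower in KO_M0 than in WT_M0, and with AP-3-84 it was higher. Hsp90aa1 was at 839 and 1897 CPM with vehicle and at 2005 and 1566 CPM with AP-3-84. Hspe1 was at 137 and 219 CPM, then at 223 and 154 CPM. Each difference between responses includes the difference between those vehicle libraries, and its part was not tested. For Hspa1a and Hspa1b the difference between KO_M0 and WT_M0 responses was 0.76 (SE 0.90, adjusted p 0.602) and 0.92 (SE 0.94, adjusted p 0.538). In M1 and M2 no member was called between KO and WT responses, where 0.00849% and 1.77% of all genes were. At an unadjusted p under 0.05, 0 and 2 members passed (7.05% and 15.4% of all genes), and DESeq2 called 0 and 1.

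**Figure D4:**
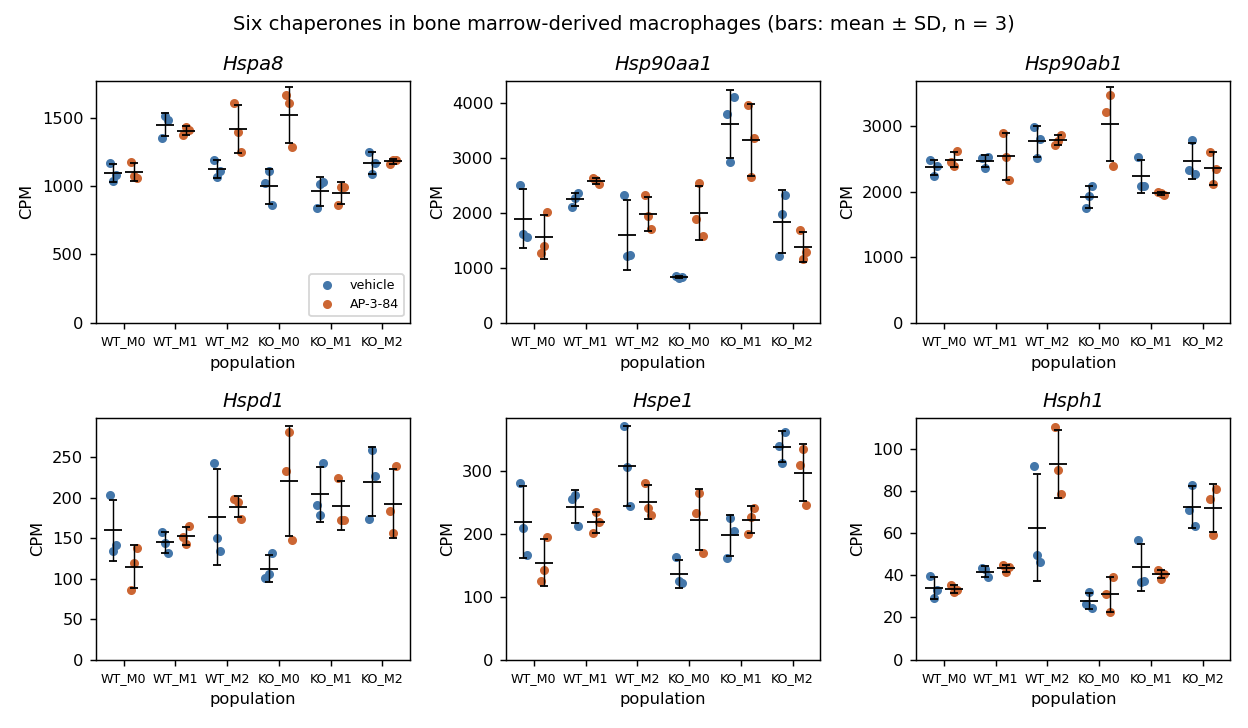
CPM of Hspa8, Hsp90aa1, Hsp90ab1, Hspd1, Hspe1 and Hsph1 in the 36 bone marrow-derived libraries (points; vehicle blue, AP-3-84 orange; bars are mean ± SD of 3 libraries), each axis from 0. The KO_M0 groups are separated for every gene but Hsph1, and the 3 KO_M0 vehicle libraries of Hsp90aa1 lie between 826 and 855 CPM.

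Between the peritoneal populations, 3 members rose further in ascites than in thio macrophages: Hspa1a by 1.69 (SE 0.26), Hsph1 by 0.68 (SE 0.12) and Hspd1 by 0.42 (SE 0.08), each with adjusted p 0.0389, in a comparison where 0.0767% of genes were called higher. These calls were near the threshold. Hspa1a kept its call in 3 of 12 fits that left out 1 library (without thio vehicle replicate 1 or 2 or thio AP-3-84 replicate 2), and Hsph1 in 3 of 12 (without ascites AP-3-84 replicate 1, 2 or 3), with adjusted p up to 0.127 (without ascites vehicle replicate 2) and 0.148 (without thio vehicle replicate 3). Hspd1 kept its call in 0 of 12, with adjusted p up to 0.148 (without thio vehicle replicate 3). All 3 calls were lost in the fit of all 48 libraries (adjusted p from 0.962 to 1.00). With the Hspa1 pair summed, the difference was 1.26 (SE 0.23, adjusted p 0.101). The copy Hspa1b, with log2 fold changes of 7.37 in ascites and 7.07 in thio, was not called here. Each difference between responses includes the difference between the vehicle libraries, and its part was not tested. For Hspa1a the vehicle means were 2.47 CPM in ascites and 4.04 CPM in thio. The 2 populations differ in mouse strain, tumour and way of collection, which cannot be told apart.

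The vehicle libraries show how far the populations differed before treatment. All 10 members were called between ascites and thio macrophages, where 33.7% of all genes were, 8 of them higher in ascites (20.3% of all genes) and 2 lower (13.4%). In the fit of all 48 libraries 3 of the 10 were called, and Hspa1a, Hspa1b, Hspa8, Hsph1, Hsp90aa1, Hspd1 and Hspe1 lost their calls (adjusted p from 0.0570 to 0.379). Hspb1 differed most, at 73.4 ± 5.41 CPM in ascites and 10.5 ± 1.42 CPM in thio (2.80, SE 0.26, adjusted p 2.52e-05). Markers of epithelial, ID8 or mesothelial cells moved with it, at 210.0 to 247 CPM summed over 7 genes in ascites with vehicle and 2.55 to 4.66 CPM in thio, where Epcam and Msln were at 0, and their part in it was not tested. Hspa1b was higher in ascites (1.31, SE 0.23, adjusted p 0.000289) and Hspa1a lower (-0.71, SE 0.22, adjusted p 0.0270). The Hspa1a call was lost without ascites vehicle replicate 1 (0.0601), 2 (0.0561) or 3 (0.0978) or thio vehicle replicate 2 (0.0746), and the summed pair did not differ beyond its error (-0.10, SE 0.19, adjusted p 0.790). Bag3 was lower in ascites (-0.76, SE 0.10, adjusted p 5.63e-06). The other 6 were higher by 0.28 to 0.47, and the smallest of these, Hsph1, lost its call without ascites vehicle replicate 2 (0.0773) or 3 (0.0509) or thio vehicle replicate 1 (0.104).

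Among bone marrow-derived vehicle groups, Hsp90aa1 varied most among the abundant members. Its mean was 3621 ± 614 CPM in KO_M1, 2248 ± 125 in WT_M1, 1897 ± 540 in WT_M0, 1844 ± 572 in KO_M2, 1595 ± 636 in WT_M2 and 839 ± 15.1 in KO_M0. In this order the libraries of KO_M1 and of KO_M0 did not overlap those of the neighbouring group, and the 4 between them overlapped from one to the next. The Hsp90aa1 difference between KO_M1 and WT_M1 was not called by edgeR and was called by DESeq2 (0.71, adjusted p 0.0368). KO_M0 and WT_M2 were not compared by a test. Hsp90aa1 was lower in KO_M0 than in WT_M0 (-1.18, SE 0.25, adjusted p 0.000565), as was Hspe1 (-0.68, SE 0.19, adjusted p 0.00657, and 0.0904 without WT_M0 vehicle replicate 1). Those 2 of 10 stood beside 16.8% of all genes called lower there. The differences between KO_M0 and WT_M0 responses given above share these vehicle libraries. Marker sets that differed between these vehicle libraries are given in the next paragraph, and their part in the Hsp90aa1 and Hspe1 differences was not tested.

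Hspb1 stood at 40.6 ± 11.2 CPM in KO_M0, 19.5 ± 9.92 in KO_M1 and means from 3.81 to 6.79 CPM in the other 4 groups. It was higher in KO_M0 than in WT_M0 (3.33, SE 0.60, adjusted p 0.00016; 16.4% of genes were called higher). Fibroblast markers (4 genes) summed to 156 to 280 CPM in those KO_M0 libraries and to 22.0 to 25.3 CPM in WT_M0, where Pdgfra was at 0. Neutrophil markers (510 to 632 and 235 to 448 CPM) and M2 markers (368 to 470 and 244 to 318 CPM) did not overlap either. Nor did the eosinophil or mast cell markers (4.06 to 4.93 and 0 to 1.02 CPM) or the epithelial, ID8 or mesothelial markers (0.524 to 1.35 and 0 to 0.256 CPM), both low. The part of these marker sets in the differences between KO_M0 and WT_M0 was not tested. Hspb1 was also higher in KO_M1 than in WT_M1 (2.34, SE 0.62, adjusted p 0.0155; 5.93% of genes higher), a call lost without WT_M1 vehicle replicate 1 (0.0791) or 3 (0.0579) or KO_M1 vehicle replicate 1 (0.0642) or 3 (0.0716). Fibroblast markers were at 86.1 to 119 CPM and 16.1 to 40.0 CPM in those 2 groups. Hspa8 was lower in KO_M1 than in WT_M1 (-0.59, SE 0.12, adjusted p 0.00173; 5.71% of genes lower). On total counts alone, which moved the median of all genes there to 0.27, it was -0.32 (adjusted p 0.0504). Other markers also differed between these vehicle groups with no overlap: the 8 macrophage markers summed to 16316 to 25725 CPM in KO_M1 and 44015 to 46963 in WT_M1, the 5 neutrophil markers to 956 to 2349 and 426 to 556, the M1 markers to 585 to 1459 and 352 to 558, and the M2 markers to 222 to 256 and 88.6 to 114. The part of these shifts in the Hspb1 and Hspa8 differences was not tested. No member was called between KO_M2 and WT_M2, where 3.56% of all genes were, and 0 passed at an unadjusted p under 0.05 (19.3% of all genes did) or by DESeq2.

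**Figure D5:**
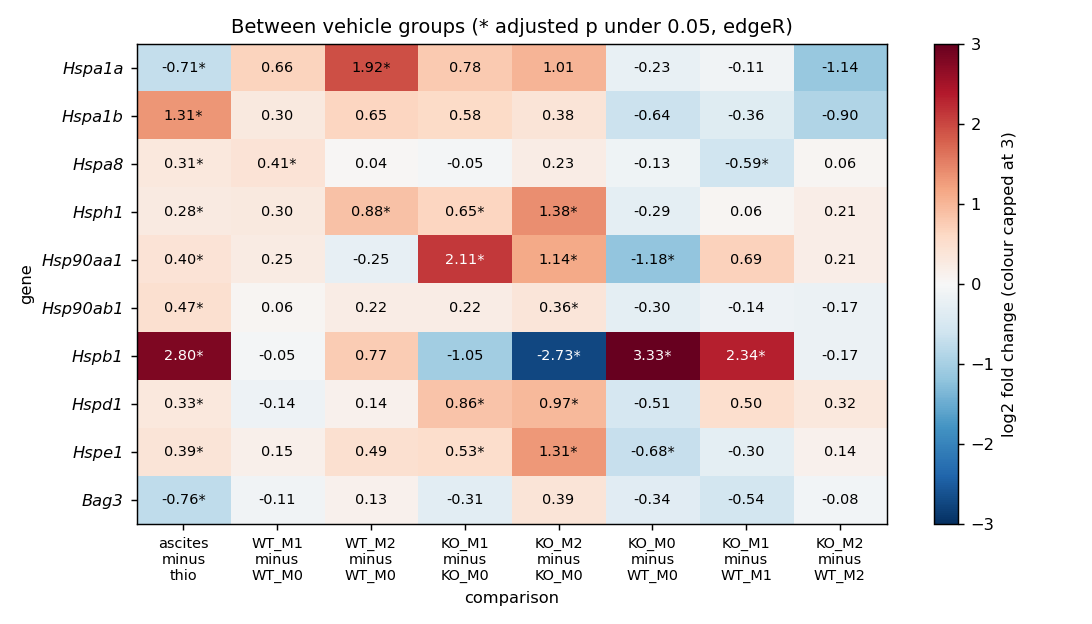
Log2 fold changes of the 10 genes (rows) between vehicle groups (columns, first group minus second), printed in each cell and coloured red for higher and blue for lower, with an asterisk where the edgeR adjusted p was under 0.05. The Hspb1 row runs from -2.73 to 3.33, the widest of the 10.

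Polarization of KO cells was compared next, among vehicle libraries. From KO_M0 to KO_M1, Hsp90aa1 (2.11, SE 0.25, adjusted p 1.75e-07), Hspd1 (0.86), Hsph1 (0.65) and Hspe1 (0.53) were higher, 4 of 10 beside 22.8% of all genes. Hsph1 lost its call without KO_M0 vehicle replicate 3 (0.0616) or KO_M1 vehicle replicate 1 (0.141), and Hspe1 without KO_M0 vehicle replicate 2 (0.0726) or 3 (0.0825) or KO_M1 vehicle replicate 2 (0.0889) or 3 (0.0617). From KO_M0 to KO_M2, Hsph1 (1.38, SE 0.22, adjusted p 9.05e-06), Hspe1 (1.31), Hsp90aa1 (1.14), Hspd1 (0.97) and Hsp90ab1 (0.36) were higher, 5 of 10 beside 20.1% of all genes, and Hspb1 was lower (-2.73, SE 0.57, adjusted p 0.000504; 18% of genes lower). Hsp90ab1 lost its call without KO_M0 vehicle replicate 1 (0.132) or 2 (0.0683) or KO_M2 vehicle replicate 2 (0.150), and with no filter on low counts (0.160). Both comparisons share the KO_M0 vehicle libraries. Macrophage markers (8 genes) summed to 32521 to 39143 CPM in KO_M0, 16316 to 25725 in KO_M1 and 5970 to 18476 in KO_M2 with vehicle. Fibroblast markers (4 genes) summed to 156 to 280 CPM, 86.1 to 119 CPM and 46.2 to 74.4 CPM in the same groups. Neutrophil markers (5 genes) summed to 510 to 632 CPM, 956 to 2349 CPM and 316 to 3025 CPM there. The part of these marker sets in the differences was not tested.

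In WT cells 1 and 2 members were called. Hspa1a was at 5.83 ± 0.735 CPM in WT_M2 and 1.53 ± 0.470 CPM in WT_M0 (1.92, SE 0.62, adjusted p 0.0239), lost without WT_M0 vehicle replicate 1 (0.0886) or 2 (0.0759) or WT_M2 vehicle replicate 1 (0.0722), and Hsph1 was higher in WT_M2 as well (0.88, SE 0.21, adjusted p 0.00279, and 0.0901 without WT_M2 vehicle replicate 1). These are 2 of 10 beside 12.7% of all genes called higher. From WT_M0 to WT_M1 only Hspa8 was called (0.41, SE 0.12, adjusted p 0.0188; 8.01% of genes called higher). It lost the call without WT_M0 vehicle replicate 2 (0.102) or 3 (0.0681) or WT_M1 vehicle replicate 2 (0.0868) or 3 (0.0735), with no filter on low counts (0.210), and on total counts alone, where it was 0.10 (adjusted p 0.558). Macrophage markers (8 genes) summed to 44015 to 46963 CPM in WT_M1 and 30428 to 38850 CPM in WT_M0 with vehicle. Fibroblast markers (4 genes) summed to 35.9 to 53.4 CPM in WT_M2 and 22.0 to 25.3 CPM in WT_M0. The part of these shifts in the WT differences was not tested.

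Related chaperone genes were listed apart from the members. Among 14 HSP40 proteins and exchange partners of HSP70, which hand substrates to HSP70 or release them, 5 rose in ascites macrophages and 3 in thio macrophages, where 1.69% and 2.51% of all genes did. Dnaja1 rose by 0.92 (SE 0.08) and 0.67 (SE 0.08) and Dnajb4 by 1.09 (SE 0.12) and 0.45 (SE 0.12). Dnajb1 rose by 1.12 (SE 0.13) in ascites, and Dnaja2 by 0.30 (SE 0.07) and 0.33 (SE 0.07). In KO_M0, where 12.1% of all genes were called higher, 3 of the 13 tested rose: Dnaja1 (0.61, SE 0.20), Dnaja2 (0.57, SE 0.17) and Bag1 (0.49, SE 0.15). The median log2 fold change of the list was 0.22 in ascites, 0.07 in thio and 0.11 in KO_M0.

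Of 9 HSP70 relatives, 3 rose in ascites macrophages, led by Hspa1l (4.73, SE 0.46, adjusted p 7.31e-06), whose gene lies beside Hspa1a on the opposite strand, and by the mitochondrial HSP70 gene Hspa9 (0.44, SE 0.06). Only Hspa9 rose in thio macrophages (0.58, SE 0.06). In KO_M0, Hspa9 (0.98, SE 0.22) and Hspa4 (0.39, SE 0.14) rose, 2 of 6 tested beside the same 12.1% of all genes. Of 13 HSP90 co-chaperones, Ptges3, the p23 protein, rose in ascites (0.35, SE 0.06), thio (0.33, SE 0.06) and KO_M0 (0.78, SE 0.14), and Ahsa1, which stimulates the HSP90 ATPase, in ascites (0.41, SE 0.08) and KO_M0 (1.13, SE 0.25). In thio the other riser was Chordc1 (0.37, SE 0.08). In KO_M0, 4 of 13 rose, beside 12.1% of all genes, and 1 fell.

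The TRiC chaperonin, the cytosolic folding chamber for actin and tubulin, was called throughout in KO_M0, where 8 of 8 subunit genes rose beside 12.1% of all genes, by 0.46 to 0.84 (median 0.72). Cct7 and Cct8, with the smallest p-values, rose by 0.72 each (SE 0.15), and Cct3, named for its size after the values were seen, by 0.84 (SE 0.21). Of the same genes, 2 of 8 rose in thio macrophages (Cct6a by 0.51, SE 0.10, and Cct7 by 0.36, SE 0.08) and 0 of 8 were called in ascites. The response of all 8 was larger in KO_M0 than in WT_M0 (median 0.91), beside 10% of all genes, and with vehicle 5 of 8 were lower in KO_M0 than in WT_M0 (median -0.58), beside 16.8%. The 2 differences share the vehicle libraries. Of 3 small heat shock genes tested in the peritoneal fit, Hspb8 rose in ascites macrophages (0.78, SE 0.18, adjusted p 0.0279). With vehicle, Hspb8 (6.12, SE 0.30) and Cryab (2.55, SE 0.31) were higher in ascites than in thio macrophages, beside the epithelial, ID8 or mesothelial markers given above. Of 7 mitochondrial chaperones and proteases, Trap1 fell in thio macrophages (-0.44, SE 0.11, adjusted p 0.0296). None of the heat shock factor genes tested (3 of 5 passed the filter in each fit), Hsf1 among them, was called in any response to AP-3-84, in WT_M0, WT_M1, WT_M2, KO_M1 and KO_M2 no gene of these 7 lists was called, and Hsf1 had log2 fold changes from -0.22 to 0.46 over the 8 populations.

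Within populations, some genes other than the members followed them closely over the 48 libraries. After each population's mean log2 CPM was subtracted, the genes most like Hspa1a among 7489 compared were Hmox1 (heme oxygenase, Pearson r 0.84), Gclm (glutathione synthesis, 0.83) and Rn7s1 (0.81). For Hsp90aa1 they were Ifrd1 (0.93), Polr2l (0.85) and Dusp1 (0.83), and for Hspd1 Lrrc59 (0.85), Nop56 (0.84) and the HSP90 co-chaperone Ahsa1 (0.83). These libraries share treatment, so both responses to AP-3-84 and library differences enter each r, and no test was made. Among members, Hspa1a and Hspa1b had r 0.96, while Hspa1a and Hspe1 had r 0.18.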

How the data were processed

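RNA of 48 libraries (16 groups of 3) was sequenced with a 3′ QuantSeq FWD kit as single 75-base reads, per the labels' protocols. The authors deposited whole-number counts per gene ID, and the submitters' processing notes name Bowtie2, RSEM and DESeq2 without roles or versions, so the counts may be rounded estimates. No source used here names the genome build or annotation behind the counts. IDs were paired with symbols as the table gives them (51596 of 51789). Counts were analysed in R 4.3.3 with edgeR 4.0.16: genes filtered by filterByExpr, TMM scaling, and a robust quasi-likelihood fit for the peritoneal libraries (12, 16955 genes) and another for the bone marrow-derived libraries (36, 11779 genes). P-values are two-sided, adjusted by the Benjamini-Hochberg method over all genes of a comparison, in 22 comparisons. CPM used TMM-scaled library sizes, except Trp53, scaled by total counts.

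The 10 members and all gene lists were chosen with earlier results of these data known. Every member is described. Named genes of other lists are the called ones with the smallest p-values, and alike genes are the 3 with the highest r for 3 members among genes with an average log2 CPM of at least 3. Related genes that share reads are uncertain, as the counting rule is not given. Alternatives were DESeq2 1.42.0, other scalings, no filter, a replicate block, other sets of libraries, the Hspa1 pair summed, and leaving out each library. Replicates differed beyond counting noise (mean chi-square per gene 2.57 to 42.6). Counts were also simulated from means without any difference between groups, with 100 random genes raised at each fold in 1 treated group. There the ascites comparison recovered 61% of 2-fold and 84% of 4-fold changes (16506 genes, 1 false call). The WT_M2 comparison recovered 44% and 86% (11366 genes, 6 false calls). The real groups differ in many genes, and recovery at counts as low as those of Hspa1a and Hspa1b with vehicle was not examined apart. Promoter windows and motif matches are from RefSeq (GRCm38.p6).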

Additional observations from a re-analysis of the deposited data

Results flagged for a closer look

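In 10 cases the response of a member to AP-3-84 differed between populations by a test of the difference itself. Between ascites and thio macrophages these were Hspa1a (1.69 on the log2 scale), Hsph1 (0.68) and Hspd1 (0.42). Between M1 and M0, averaged over genotypes, it was Hspa1a (-2.71), and between M2 and M0 it was Hspb1 (2.23). Between KO_M0 and WT_M0 they were Hspa8 (0.59), Hsp90aa1 (1.53), Hsp90ab1 (0.59), Hspd1 (1.45) and Hspe1 (1.21). For Hsp90ab1 every treated library was above every vehicle library in KO_M0, where it rose (0.66), and below in KO_M1, where the difference was not called (-0.17, SE 0.13, edgeR adjusted p 1) and 3.87% of all genes showed that order. The difference between these responses was not tested.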

How the results depend on the processing

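Of the counts of members called, 153 of 187 under other settings and 128 of 192 with 1 library left out stayed within 1.5 times the value reported. Of single-member results, 587 of 639 under other settings and 454 of 564 with 1 library left out kept direction and side of the threshold. The cause of the changes below was not tested. With no filter on low counts, 3 members were called in WT_M0, 3 in WT_M1, 2 for M1 minus M0, 2 for M2 minus M0, 1 for KO minus WT in M1, 1 in M2, 0 between WT_M1 and WT_M0 and 1 between KO_M2 and WT_M2. DESeq2 called 2 in WT_M0, 1 in WT_M1, 2 for M1 minus M0, 2 for M2 minus M0 and 1 for KO minus WT in M2. In 1 fit of all 48 libraries the counts were 9 in ascites, 6 in thio, 0 for the ascites minus thio responses, 3 for their vehicle groups, 2 in WT_M0, 2 for M1 minus M0, 2 for M2 minus M0, 1 for KO minus WT in M2, 5 between KO_M0 and WT_M0 and 4 between KO_M1 and WT_M1. Fitting only the groups compared gave 2 in WT_M0, 1 in WT_M1, 4 in KO_M0, 0 in KO_M2, 1 for KO minus WT in M2, 5 between KO_M0 and WT_M0 and 4 between KO_M1 and WT_M1. Median-ratio size factors gave 1 for the ascites minus thio responses, and total counts gave 0 between WT_M1 and WT_M0. Summing the Hspa1 pair gave 1 in KO_M2 and 1 between WT_M2 and WT_M0. Without the KO_M0 groups, an alternative chosen after seeing the data, 2 were called in WT_M0.

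With 1 library left out, counts ranged from 0 to 1 for the ascites minus thio responses, 0 to 1 in WT_M0, 0 to 2 in KO_M2, 0 to 3 for M1 minus M0, 0 to 2 for M2 minus M0, 3 to 6 for KO minus WT in M0, 0 to 1 in M2, 0 to 1 between WT_M1 and WT_M0, 0 to 3 between WT_M2 and WT_M0, 2 to 4 between KO_M1 and KO_M0 and 1 to 3 between KO_M1 and WT_M1. Hspb1 in KO_M1 (-0.31) ranged from -0.93 without AP-3-84 replicate 1 to 0.035 without AP-3-84 replicate 2, where its sign reversed. Same-numbered libraries of a population correlated at -0.33 to 0.03 in the peritoneal set (1 of 6 pairs best with its own number). In the bone marrow-derived set they correlated at -0.28 to 0.38 (5 of 18), and 4 pairs were over 0.1. With 3 libraries per group these values cannot exclude that replicate numbers pair the samples. With a replicate block, 0 members were called for the ascites minus thio responses. Scaling by total counts moved the median of all genes to 0.14 between ascites and thio vehicle groups, 0.11 in WT_M2, -0.30 between WT_M1 and WT_M0, -0.20 between WT_M2 and WT_M0, 0.27 between KO_M1 and WT_M1, 0.19 between KO_M2 and WT_M2 and -0.15 for KO minus WT in M2. Depth limits Hspa1a and Hspa1b most, at 12 to 59 counts over the 3 vehicle libraries of a bone marrow-derived group.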
